A study of Mus musculus with 4 samples.

Results

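The cytosolic ribosomal protein genes are the genes whose products, with ribosomal RNA, build the ribosome of the cytosol. They were chosen by symbol, as names that start with Rpl or Rps and a digit or with Rplp. Of 101 such symbols, 10 Rps6k kinase genes and 7 pseudogenes with -ps in their names were left out, which leaves 84 of the 19074 genes listed. There were 51 large-subunit names and 33 small-subunit names. Their RNA was counted in single islet cells of C57BL/6 mice with the 10x Genomics 3′ assay, in which a unique molecular identifier (UMI) marks each captured molecule. The 2 knockout libraries came from mice with floxed Sel1L alleles and Cre recombinase expressed from the insulin gene Ins1 (Sel1L Ins1), and the 2 wild type libraries from mice with floxed Sel1L alleles (Sel1L f/f). SEL1L works with the ubiquitin ligase HRD1 to clear misfolded proteins from the endoplasmic reticulum. The series asks what this pathway does for the identity and function of beta cells. No group with Cre and unfloxed Sel1L was analysed here, so what Cre does and what the deletion does cannot be told apart. Mice were 7 weeks old by the sample labels, but 5 weeks old by the text of the series. Islets of every group recovered overnight in RPMI medium, per the labels, and were separated with trypsin. The labels do not say whether libraries of the same genotype came from separate animals, so p-values measure the spread between libraries, which may be technical.

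Ribosomal proteins are made in equal numbers for each ribosome, and excess copies are degraded. Most of their mRNAs start with a run of pyrimidines that begins with C, the 5′ terminal oligopyrimidine (TOP) sequence, through which the kinase complex mTORC1 and the protein LARP1 control their translation and stability. Beta cells translate large amounts of insulin mRNA on ribosomes bound to the endoplasmic reticulum. A few names in the set stand apart. RPL22L1, RPS27L and RPL36AL are paralogs of RPL22, RPS27 and RPL36A, Rps27rt is an intronless retrogene copy of Rps27, RPL3L is the striated-muscle form of RPL3 and RPL39L the testis form of RPL39. RPS27A is made as a fusion to ubiquitin. Rpl7l1 and Rps19bp1 match the symbol pattern, but RPL7L1 acts in ribosome assembly and RPS19BP1 is a nucleolar regulator of the deacetylase SIRT1.

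Cells were divided by hormone share into beta cells (Ins1 and Ins2 at least 10% of UMIs), alpha cells (Gcg at least 3% and insulin under 5%), delta cells (Sst at least 3% and insulin under 5%) and other cells. After removal of doublets there were 2398 and 1376 beta cells in the knockout libraries and 3544 and 3468 in the wild type libraries. Alpha cells numbered 329 to 1109, delta cells 230 to 532 and other cells 497 to 723 per library. The other cells held endothelial, mesenchymal, macrophage and Schwann markers, and 123 to 258 cells per library with at least 3% of UMIs from Ppy. Cells with 5 to 10% insulin also fell there, and these were 10.2% and 4.83% of the other cells of knockout libraries, against 1.81% and 0.955% of those of wild type libraries. The 9 beta cell markers summed to 1499 and 1517 CPM, counts scaled to a common library total, here of non-hormone UMIs, in knockout beta cells and to 4449 and 4393 in wild type beta cells. Pairs of libraries shared 1 to 9 cell barcodes. Sel1l had 31.3 and 33.0 TMM-scaled CPM in knockout and 45.1 and 45.9 in wild type beta cells, a log2 change of -0.50 that was 0.41 with library size only. Since 3′ counts can also read transcripts of the recombined allele, this does not check the labels.

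**Figure D1:**
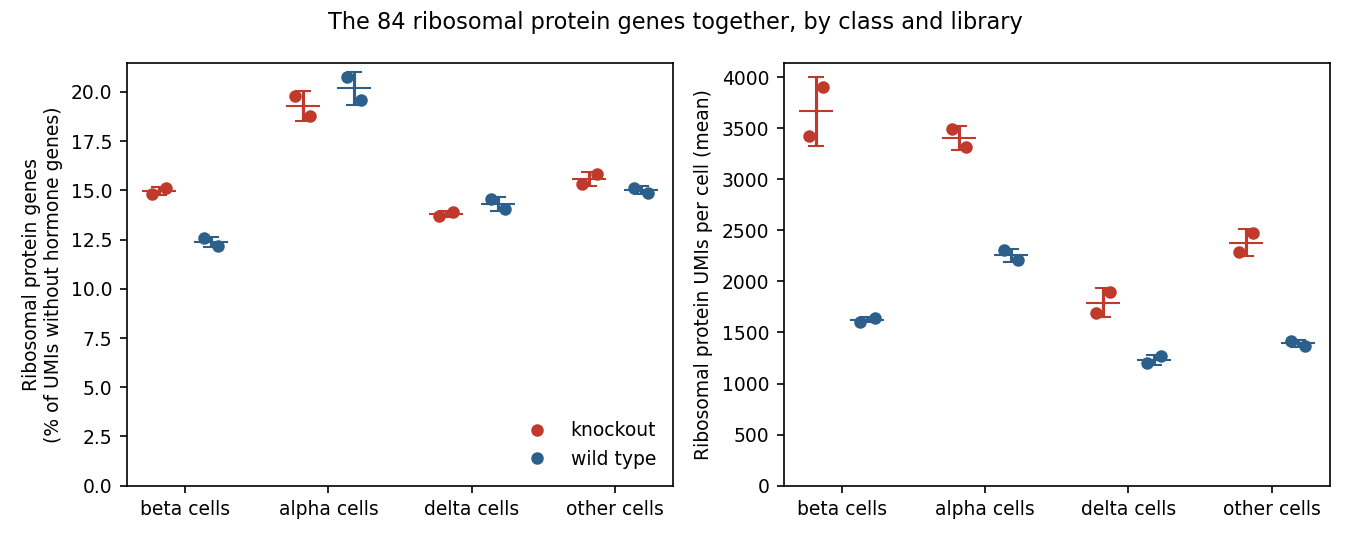
Share of UMIs without 7 hormone genes (left, percent) and mean UMIs per cell (right) that came from the 84 ribosomal protein genes, by class. Points are libraries, with knockout left of wild type, and bars are mean ± SD. The share of both knockout libraries lay above both wild type libraries in beta and other cells and below them in delta cells, and UMIs per cell were higher in knockout libraries in all 4 classes.

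As a whole, the family took a larger part of the RNA of knockout beta cells. With the 7 hormone genes left out, since insulin alone was 41.0% and 44.5% of UMIs in knockout and 67.7% and 68.3% in wild type beta cells, the members held 14.8% and 15.1% of UMIs in the knockout libraries and 12.6% and 12.2% in the wild type libraries. The means were 15.0% ± 0.215 in knockout and 12.4% ± 0.259 in wild type beta cells (SD, n = 2 each), and the groups did not overlap. The exact permutation test (two-sided) gave p = 0.333, the smallest value possible with 2 libraries a genotype. Over single beta cells the median share was 14.7% and 15.0% for knockout and 12.2% and 11.8% for wild type libraries.

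The order was different in the other endocrine cells. In alpha cells the members held 19.8% and 18.8% of non-hormone UMIs in the knockout libraries and 20.8% and 19.6% in the wild type libraries, so that the groups overlapped (exact permutation p = 0.667). Delta cells had 13.69% and 13.91% in knockout and 14.54% and 14.04% in wild type libraries, lower in knockout without overlap (exact permutation p = 0.333). In other cells the share was 15.3% and 15.8% in knockout, against 15.1% and 14.9% in wild type libraries (exact permutation p = 0.333). With hormone genes in the total, the knockout share was above the wild type share by 0.337 percentage points in alpha cells and by 0.0323 in delta cells, so the sign there depends on the denominator.

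Member UMIs per cell were higher in knockout libraries in every class, and so were non-hormone UMIs. A beta cell held 3664 ± 334 member UMIs in knockout and 1623 ± 23.7 in wild type libraries (SD, n = 2 each), 2.26 times as many. The ratio was 1.51 in alpha, 1.46 in delta and 1.71 in other cells. Non-hormone UMIs per cell were 1.86 times as many in knockout beta, 1.58 in alpha, 1.51 in delta and 1.64 in other cells, and the median mitochondrial share of UMIs was 3.61% in knockout and 1.71% in wild type beta cells. Their part in the member counts was not tested. Fewer captured molecules and less RNA per cell cannot be told apart in these counts.

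**Figure D2:**
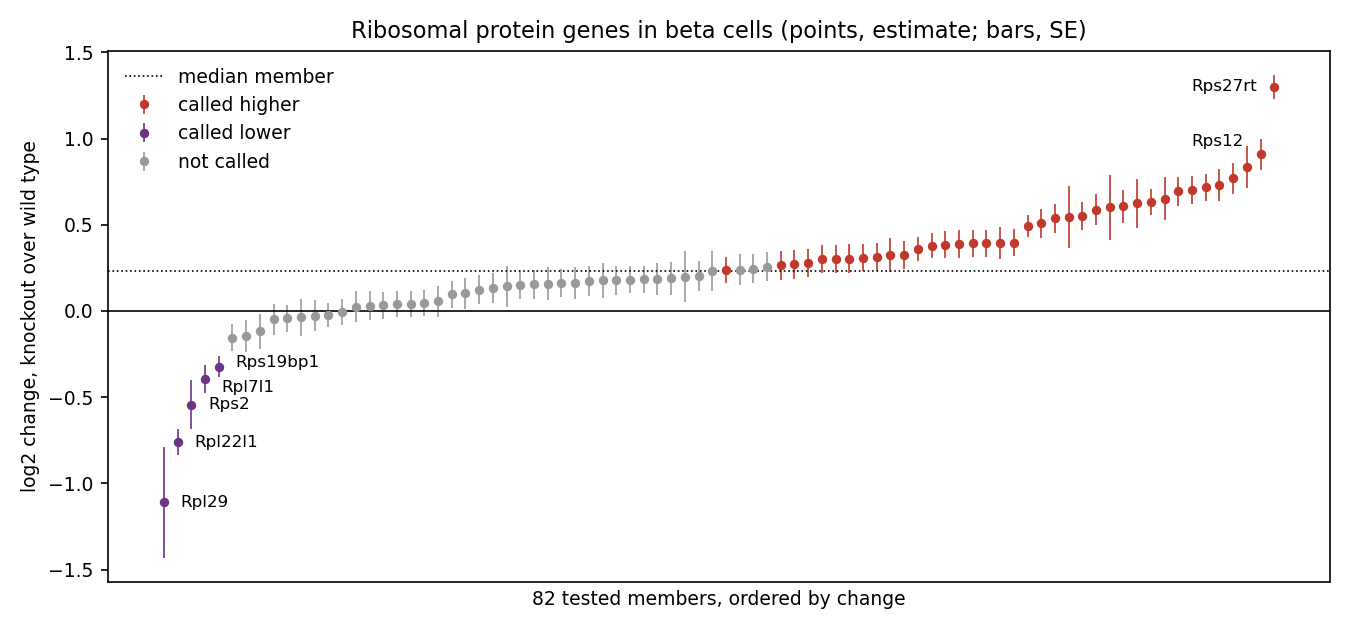
Log2 change, knockout over wild type, of the 82 tested ribosomal protein genes in beta cells, ordered by size, with SE bars. The dotted line is the median member at 0.23, with Rps27rt and Rps12 at the upper end and Rpl29, Rpl22l1 and Rps2 at the lower end.

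In beta cells, 38 of 82 tested members were higher in knockout and 5 were lower, while 39 did not pass the test. Across all 14854 genes tested, 20.3% were called higher and 21.2% lower. The median member changed by 0.23 on the log2 scale and the median gene by less than 0.01, and 68 of the 82 members were above 0. Genotypes were compared on UMIs summed per library with edgeR's quasi-likelihood test, with TMM scaling and Benjamini-Hochberg adjusted p-values under 0.05 over all genes as a call. TMM sets the median gene near 0. With library size only the median gene itself moved by 0.91, and 80 members were called higher and 0 lower, where 85.2% and 2.07% of all genes were called. With sums scaled by the number of cells the median gene moved by 0.92 and the members' counts were the same, where 85.1% and 2.12% of all genes were called. The changes that follow are relative to the median gene. Without knockout library 1 the median member was at 0.25, and without knockout library 2 at 0.24, with the median gene at 0.01 in both. These fits leave 1 knockout library, and fewer members and fewer of all genes were called in them.

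All stalk genes rose. RPLP0 is the base of the ribosomal stalk, and RPLP1 and RPLP2 are the acidic proteins on it that recruit elongation factors. Rplp0 had 961 and 996 TMM-scaled CPM in knockout and 603 and 683 in wild type beta cells, a log2 change of 0.61 (SE 0.0944, adjusted p = 0.0030). Rplp1 changed by 0.54 and Rplp2 by 0.39, and in all 3 genes both knockout libraries lay above both wild type libraries. Without knockout library 2 the adjusted p of Rplp2 was 0.0725.

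Among small-subunit names, 15 of 32 rose and Rps2 alone fell, with a median of 0.25, where 20.3% of all genes rose and 21.2% fell. Rps12, which encodes a protein of the small-subunit head region, had 559 and 625 CPM in knockout and 323 and 308 in wild type beta cells. It was 1.88-fold higher in knockout (log2 0.91, SE 0.0887, adjusted p = 0.00056), and the libraries of each genotype lay close together. Rps25, known for its role in initiation at viral internal ribosome entry sites, had 407 and 379 CPM in knockout and 238 and 241 in wild type libraries. Its log2 change of 0.72 was near that of Rps14, 0.70, a small-subunit platform gene.

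Among large-subunit names other than the stalk genes, 20 of 45 rose and 2 fell, with a median of 0.19. Of all genes, 20.3% rose and 21.2% fell. Rpl12, at the base of the stalk, had 398 and 421 CPM in knockout and 242 and 265 in wild type beta cells (log2 0.69, SE 0.0827, adjusted p = 0.0011). RPL23A sits at the exit of the nascent chain, where the signal recognition particle docks. Rpl23a had 149 and 169 CPM in knockout and 98.3 and 88.7 in wild type libraries, a change of 0.77. The paralog Rpl36al had 230 and 258 CPM in knockout, against 122 and 153 in wild type libraries (log2 0.83, SE 0.121). Its X-linked partner Rpl36a changed by 0.38. Much of the 3′ sequence of both genes also occurs in other annotated genes.

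Of the paralogs and other names that stand apart, Rps27rt had the largest change of all members, 27.7 and 28.6 CPM in knockout and 10.9 and 12.0 in wild type beta cells (log2 1.30, SE 0.0690, adjusted p = 8.9e-05). Its counts are uncertain. Of the 90-base windows in the last 400 bases of its annotated transcript, 89.8% occur unchanged in other annotated genes, Rps27 among them, and Rps27 held 1314 and 1396 CPM in knockout and 1006 and 752 in wild type libraries. Rps27l did not pass the test, with 207 and 210 CPM in knockout and 208 and 216 in wild type libraries. Rpl39l and Rpl3l were too low to test, with 0 to 9 and 0 to 3 UMIs in any class and library.

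The 5 members that fell in beta cells included both names that are not parts of the ribosome. Rpl7l1 had 21.43 and 20.99 CPM in knockout and 25.78 and 29.96 in wild type libraries, a log2 change of -0.39. Rps19bp1 changed by -0.32, and each of these calls ended without knockout library 2 (adjusted p = 0.0523 and 0.0738). Rpl22l1 had 196 and 200 CPM in knockout, against 325 and 346 in wild type libraries (log2 -0.76, SE 0.0747, adjusted p = 0.00057). RPL22, its paralog, represses the Rpl22l1 mRNA in mice, and Rpl22 itself had 312 and 315 CPM in knockout and 240 and 248 in wild type libraries (log2 0.36, SE 0.0712). Whether these changes are linked was not tested. Rpl22l1 was also called lower in alpha and delta cells. There Rpl22 held 0.473% and 0.460% of member UMIs in knockout and 0.444% and 0.452% in wild type alpha cells, and 0.583% and 0.540% against 0.559% and 0.554% in delta cells. After the 5 members that fell, the next in order in beta cells were Rpl10a, Rpl8 and Rpl19, at -0.16, -0.15 and -0.12, which did not pass the test.

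Rps2 and Rpl29 fell with more spread. Rps2, whose product lies near the mRNA entry of the small subunit, had 471 and 593 CPM in knockout and 700 and 853 in wild type beta cells (log2 -0.55, SE 0.142, adjusted p = 0.0218). The call ended without knockout library 1 (adjusted p = 0.124) and without wild type library 2 (adjusted p = 0.0505). Rpl29, a large-subunit gene whose product is also known as a heparin-binding protein, had 208 and 93.8 CPM in knockout and 310 and 343 in wild type libraries. Both knockout libraries were below both wild type libraries, but they differed from each other by more than any other member (log2 -1.11, SE 0.322, adjusted p = 0.0317). DESeq2 gave an adjusted p of 0.109 for Rpl29, and the change was -1.79 without knockout library 1 and -0.63 without knockout library 2. Without wild type library 2 its adjusted p was 0.0717. With library size only, or with sums scaled by the number of cells, Rpl22l1, Rps2, Rpl7l1 and Rps19bp1 were above 0, and Rpl29 was at -0.19 and -0.22 with no call.

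The sequence around the transcription start is shown for the members at the ends and in the middle of this range, since TOP runs lie there. RefSeq start sites (GRCm38.p6) matched 64 of the 84 members, Rpl29 and Rpl23a not among them. Each stretch runs from 35 bases before the start to 20 after it, and capitals mark the longest run of C and T that begins with C within 20 bases of the start. Rps12, Rps25 and Rpl12 rose, Rpl22l1 and Rps2 fell, and Rpl14 changed by -0.01 (SE 0.0731).
Rps12, chr10:23787190-23787244, minus strand: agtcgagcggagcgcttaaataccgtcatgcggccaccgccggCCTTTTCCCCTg
Rps25, chr9:44407679-44407733, plus strand: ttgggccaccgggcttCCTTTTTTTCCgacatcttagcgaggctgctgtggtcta
Rpl12, chr2:32961677-32961731, plus strand: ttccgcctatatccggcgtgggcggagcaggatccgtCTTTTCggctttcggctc
Rpl22l1, chr3:28805473-28805527, plus strand: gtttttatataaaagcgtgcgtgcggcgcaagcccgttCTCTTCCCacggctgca
Rps2, chr17:24720028-24720082, plus strand: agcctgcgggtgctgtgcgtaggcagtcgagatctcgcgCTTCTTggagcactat
Rpl14, chr9:120571482-120571536, plus strand: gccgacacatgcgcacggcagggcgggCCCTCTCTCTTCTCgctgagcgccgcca
Members on either side held such runs, of 11 letters in Rps12 and Rps25, 6 in Rpl12 and Rps2, 8 in Rpl22l1 and 14 in Rpl14. Only the run of Rpl14 spans the annotated start. That of Rps25 ends before the start and the others begin after it, so these runs are not shown to be the first bases of the mRNAs.

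Over the whole family, a run of at least 8 letters lay within 20 bases of 40.8% of the 76 member start sites, against 12.6% of all 32851 start sites in the table. The letters CTTTC on the gene's strand were found there in 26.3% of member sites and 5.50% of all sites. On either strand of the 300-base windows, ACTTCCG was found in 30.3% of member sites and 6.42% of all sites. The 30 tested members with a run of at least 8 letters had a median log2 change of 0.22 in beta cells, with 13 called higher and 1 lower. The 32 with shorter runs only also had a median of 0.22, with 14 called higher and 3 lower. Across all genes tested in beta cells, 20.3% were called higher and 21.2% lower. A match in these letters is a description and not a measured start or binding site.

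Rps27rt and its parent show how alike these copies are.
Rps27rt, chr9:114982720-114982774, minus strand: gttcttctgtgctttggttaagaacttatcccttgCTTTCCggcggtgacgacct
Rps27, chr3:90213629-90213683, minus strand: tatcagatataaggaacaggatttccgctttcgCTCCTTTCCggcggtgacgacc
The longest stretch common to the 2 windows was 19 bases, ctttccggcggtgacgacc, which includes the end of the C and T run. At the other end of the transcripts, of the 84 members, 65 had at least 1 of the 90-base 3′ windows in another annotated gene, and 37 had at least 50% of them. Rps12 had 100% of its windows in 20 other genes and Rpl36a 100% in 2. Rpl23a had 83.6% shared, Rpl36al 75.9%, Rps2 70.4%, Rpl22l1 56.6% and Rpl29 37.6%, while Rpl12 shared none. Among members with under 50% shared, 23 of 45 were called higher in beta cells and 3 lower. Among those with 50% or more, 15 of 37 were higher and 2 lower, where 20.3% and 21.2% of all genes were called. How the authors' counting assigned reads that fit several genes was not tested.

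Relative to the family's own total, the balance among members also shifted in beta cells. With the sum over members as the scale, 16 were called higher and 14 lower, where 10.2% and 44.1% of all genes were called. At the upper end stood Rps27rt at 1.05, Rps12 at 0.65 and Rpl36al at 0.58, and at the lower end Rpl29 at -1.36, Rpl22l1 at -1.01 and Rps2 at -0.80. Without knockout library 1 the member changes on this scale ran from -2.07 to 1.05, and without knockout library 2 from -1.02 to 1.04. These fits leave 1 knockout library, and fewer members and fewer of all genes were called in them. On the same scale 11 members were called higher and 1 lower in alpha cells, where 17.2% and 1.11% of all genes were called. In delta cells 12 were higher and 2 lower, where 9.67% and 1.35% of all genes were called. In other cells edgeR called 0 members either way, where 0.656% and 0.369% of all genes were called. At an unadjusted p under 0.05, 11 members were higher and 1 lower, against 1837 and 775 of all 13269 genes tested. Rpl41, which encodes the smallest ribosomal protein, gave the most UMIs of any member, 4.73% and 4.97% of the family's UMIs in knockout and 5.36% and 4.49% in wild type beta cells.

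**Figure D3:**
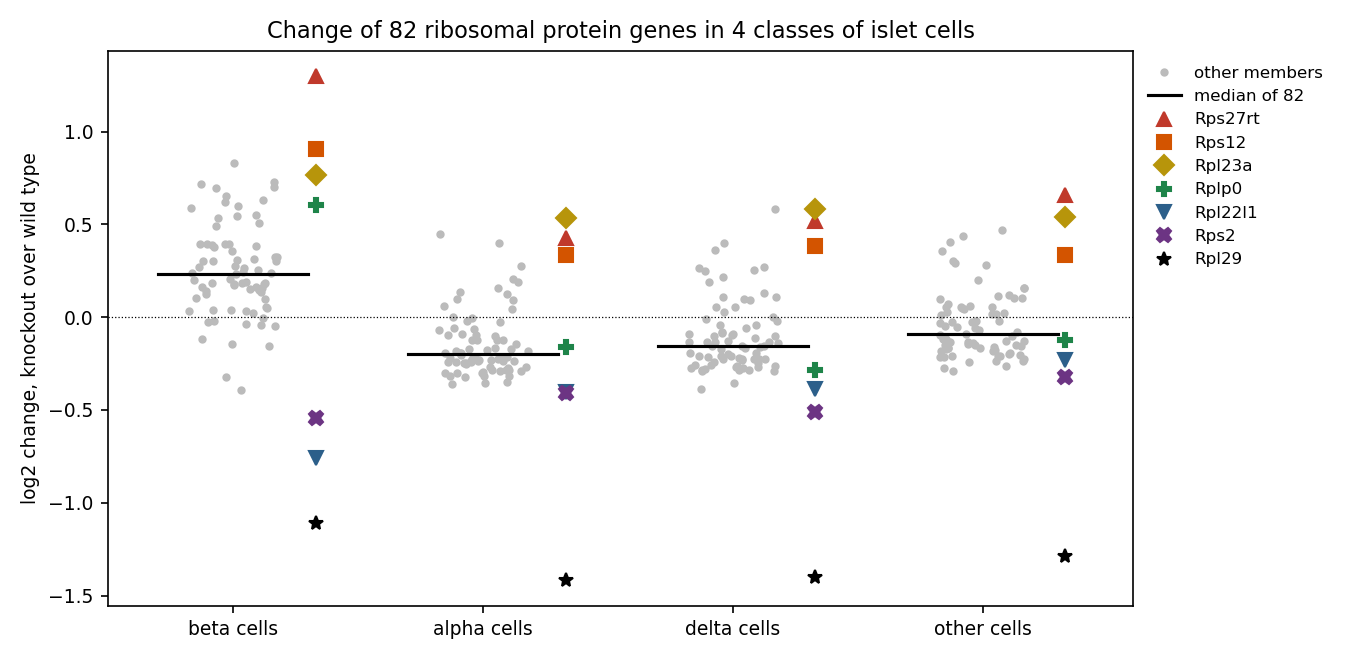
Log2 change, knockout over wild type, of 82 ribosomal protein genes in beta, alpha, delta and other cells. Grey points are members, black lines medians, and 7 members are marked. The median is 0.23 in beta, -0.20 in alpha, -0.16 in delta and -0.09 in other cells, and Rpl29 is lowest in every class.

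Outside beta cells the median member was below 0, and the balance of calls depended on the scale and on single libraries. In alpha cells 6 of 82 members were higher and 13 lower, with a median of -0.20, where 6.95% and 9.99% of all genes were called. In delta cells 8 were higher and 12 lower, with a median of -0.16, where 3.24% and 5.12% of all genes were called. In other cells edgeR called 0 members either way, where 0.362% and 0.339% of all genes were called. At an unadjusted p under 0.05, 10 members were higher and 7 lower there, against 1425 and 1287 of all 13269 genes tested. DESeq2 called 2 higher and 0 lower there, against 183 and 213 of all 13269 genes. With library size only, the median member was at 0.02 in alpha, -0.01 in delta and 0.21 in other cells, while the median gene was at 0.23, 0.16 and 0.31. The order of the calls turned there, to 17 higher and 1 lower in alpha cells, where 27.5% and 1.51% of all genes were called, and to 13 and 1 in delta cells, where 9.49% and 1.45% were called. In other cells it gave 9 higher and 0 lower, where 9.44% and 0.309% of all genes were called. With a library left out, 1 genotype keeps 1 library. Without knockout libraries 1 and 2 in turn, the median member of alpha cells was at -0.26 and -0.13. Without wild type libraries 1 and 2 in turn it was at -0.16 and -0.23. In delta cells these 4 medians were -0.14, -0.18, -0.13 and -0.16. The number of members called moved with the library left out, as did that of all genes. In alpha cells the order of higher and lower calls turned without knockout library 2.

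Rpl23a, Rpl13a, Rps27rt, Rps15, Rps12 and Rpl12 were called higher in alpha, delta and beta cells, and Rpl29, Rps2 and Rpl22l1 were called lower in all 3. All these comparisons use the same 4 libraries and are not independent. RPL13A is known for a second role in silencing inflammatory mRNAs. Rpl13a had 118 and 117 CPM in knockout and 88.13 and 83.99 in wild type alpha cells (log2 0.45, SE 0.0667, adjusted p = 0.0038), and its change in delta cells was 0.59. Rpl23a had 442 and 467 CPM in knockout, against 328 and 300 in wild type alpha cells (log2 0.53, SE 0.0766), and changed by 0.58 in delta cells. Rps15, a gene of the small-subunit head, changed by 0.40 in both classes. Rpl10a was the other large fall, -0.36 in alpha and -0.39 in delta cells. The alpha call of Rpl10a ended without knockout library 2 (adjusted p = 0.0526). In delta cells the calls of Rps15 and Rpl10a ended without knockout library 2 (adjusted p = 0.124 and 0.0716) or wild type library 2 (adjusted p = 0.0687 and 0.0606), and that of Rpl22l1 without knockout library 2 (adjusted p = 0.0539). The delta call of Rps27rt ended without any 1 of the 4 libraries (adjusted p = 0.0539 to 0.124), and its alpha call without knockout library 1 (adjusted p = 0.176). Those of Rps2 ended without knockout library 1 or wild type library 2 in both classes (adjusted p = 0.0570 to 0.0919), and DESeq2 gave 0.0772 for Rps2 in delta cells.

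**Figure D4:**
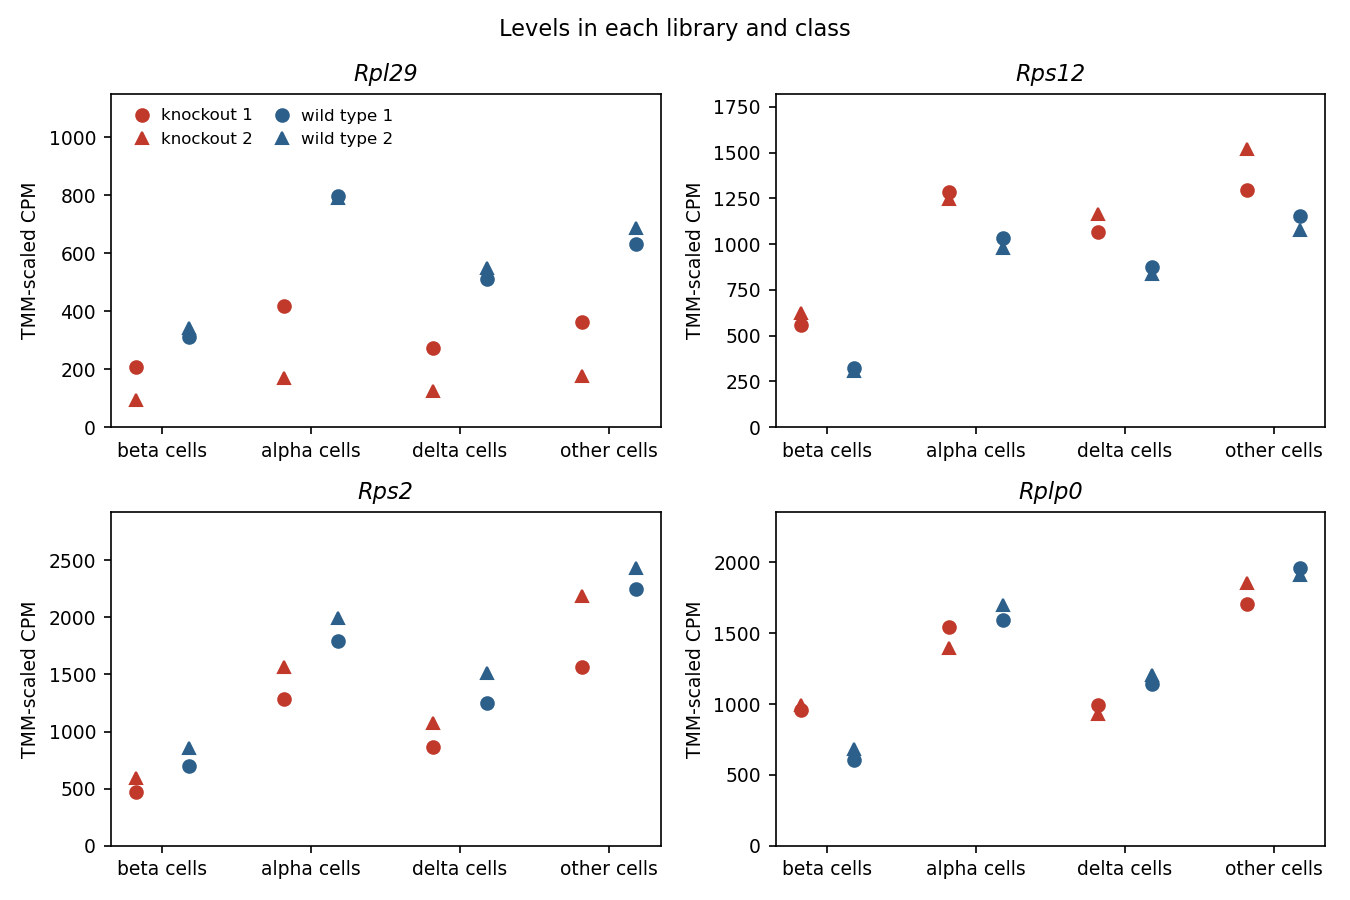
TMM-scaled CPM of Rpl29, Rps12, Rps2 and Rplp0 in each library, with knockout left of wild type. Classes were scaled separately, so heights are compared within a class. Rpl29 is lower in knockout in every class, with knockout library 2 lowest, while Rplp0 is higher in knockout in beta cells and not in the others.

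Rpl29 (chromosome 9, 106429454 to 106431568, plus strand, GENCODE vM21 on GRCm38) had the lowest log2 change of the members in all 4 classes. It had 418 and 169 CPM in knockout and 797 and 789 in wild type alpha cells, 273 and 125 against 510 and 549 in delta cells, and 364 and 176 against 632 and 686 in other cells. Knockout library 2 was the lowest in every class and knockout library 1 lay between it and the wild type libraries. The log2 changes were -1.42 (SE 0.280, adjusted p = 0.0087) in alpha, -1.40 (SE 0.222, adjusted p = 0.0038) in delta and -1.29 (SE 0.303, adjusted p = 0.0981) in other cells. DESeq2 gave adjusted p-values of 0.0935 in alpha and 0.0622 in delta cells. Without knockout library 1 the change was -2.24 in alpha cells, -2.10 in delta cells and -1.91 in other cells, and without knockout library 2 it was -0.93, -0.97 and -0.86. The recombinase is driven by Ins1, and the 9 beta markers summed to 71.2 and 66.5 CPM in knockout and 69.0 and 70.6 in wild type alpha cells. The same markers were lower in knockout than in wild type beta cells, and Ins1 changed by -2.56 in alpha cells. What part RNA from beta cells had in the alpha values of Rpl29 was not tested.

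Rps12 (chromosome 10, 23785183 to 23787275, minus strand) had the same direction in every class but not the same size. It had 1284 and 1247 CPM in knockout and 1032 and 976 in wild type alpha cells, and 1066 and 1163 against 874 and 835 in delta cells. In other cells it had 1296 and 1520 CPM in knockout and 1155 and 1075 in wild type libraries. The log2 changes were 0.33 (SE 0.0807, adjusted p = 0.0194) in alpha, 0.38 (SE 0.0797, adjusted p = 0.0140) in delta and 0.34 (SE 0.114, adjusted p = 0.176) in other cells. The alpha call ended without knockout library 1 (adjusted p = 0.0512) or wild type library 2 (adjusted p = 0.0590), and the delta call without knockout library 2 (adjusted p = 0.125) or wild type library 2 (adjusted p = 0.0608).

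The difference between classes was tested directly, as an interaction with each library as a block. The knockout effect was higher in beta than in alpha cells for 66 members and lower for 1, where 13.0% and 14.6% of all genes differed. Against delta cells it was higher for 68 and lower for 1, where 9.53% and 8.58% of all genes differed. The median difference was 0.40 against alpha and 0.37 against delta cells. Without knockout library 2, which leaves 1 knockout library, the median difference against alpha cells was 0.34. Fewer members and fewer of all genes were called higher there. When each sum was scaled by its member total, 12 were higher and 20 lower against alpha cells, where 3.18% and 47.5% of all genes differed. Against delta cells they were 14 and 25, where 3.31% and 39.8% of all genes differed.

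Rplp0 was among the members with the smallest p in both tests, with differences of 0.77 (SE 0.0941, adjusted p = 1.1e-07) against alpha and 0.91 (SE 0.0637, adjusted p = 2.1e-08) against delta cells. It had 1546 and 1397 CPM in knockout and 1594 and 1698 in wild type alpha cells, and 995 and 932 against 1142 and 1202 in delta cells. Knockout libraries were thus below wild type libraries in these classes and above them in beta cells. The change in alpha cells did not pass the test (log2 -0.16, adjusted p = 0.242), and in delta cells Rplp0 fell by 0.28 on the log2 scale (adjusted p = 0.0420). That delta call ended without any 1 of the 4 libraries (adjusted p = 0.0517 to 0.224) and with doublets kept (adjusted p = 0.0507), and with sums scaled by the number of cells the change was 0.39. Against alpha cells, Rps27rt, Rpl36al and Rpl10, a protein added late in large-subunit assembly, differed by 0.88, 0.65 and 0.77. Against delta cells, Rps29, Rps21 and Rps27 were also among the members with the smallest p, at 0.85, 0.70 and 0.69. These 3 have short mRNAs, which also differed between the wild type libraries.

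Rpl22l1 was the member with a lower effect in beta cells, by -0.35 (SE 0.0842, adjusted p = 0.0016) against alpha and by -0.35 (SE 0.0579, adjusted p = 0.00031) against delta cells. It had 557 and 483 CPM in knockout and 686 and 688 in wild type alpha cells, and fell by 0.40 there and by 0.39 in delta cells. The sign of its differences turned with library size only, to 0.33 and 0.39. With sums scaled by the number of cells, 0 members were called lower in either test, where 8.15% and 3.64% of all genes were. Without knockout library 1 the lowest difference of any member against alpha cells was -0.23. The effect on Rps12 was higher in beta cells by 0.57 (SE 0.0882) against alpha and by 0.55 (SE 0.0564) against delta cells. Rpl29 was also counted as higher, by 0.35 and 0.32, since it fell by less in beta cells. Rps2, Rps15, Rpl13a, Rpl7l1 and Rps19bp1 passed neither test, with differences of -0.18 to 0.04.

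Wild type cells give the starting levels. Within the wild type libraries, beta cells were below alpha cells in 81 of 82 members and above in 0, where 31.2% and 33.6% of all genes were called lower and higher. The median difference was -0.88, and Rpl36a, Rpl23a, Rplp2, Rps16 and Rpl13a had the smallest p, with differences of -1.27, -1.16, -1.20, -1.24 and -1.08. Rpl7l1 was the exception at -0.10. Scaled by the number of cells, 69 members were lower and 1 higher, where 14.0% and 57.2% of all genes were called.

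Against wild type delta cells, 52 members were lower in wild type beta cells and 9 higher, where 24.5% and 29.2% of all genes were called, with a median of -0.20. Rps27l, Rpl41, Rpl29, Rps6 and Rps2 were higher in beta cells, by 0.40, 0.36, 0.30, 0.21 and 0.16. RPS6 is the small-subunit protein that S6 kinases phosphorylate. Rpl36a, Rps4x, Rps9 and Rps29 were lower, by -0.61, -0.56, -0.54 and -0.51. This comparison turned with the scale, as did that of all genes. When sums were scaled by the number of cells, 77 members were higher in beta cells and 0 lower, where 63.3% and 10.5% of all genes were called. With library size only 0 were higher and 82 lower, where 3.92% and 82.4% of all genes were called.

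**Figure D5:**
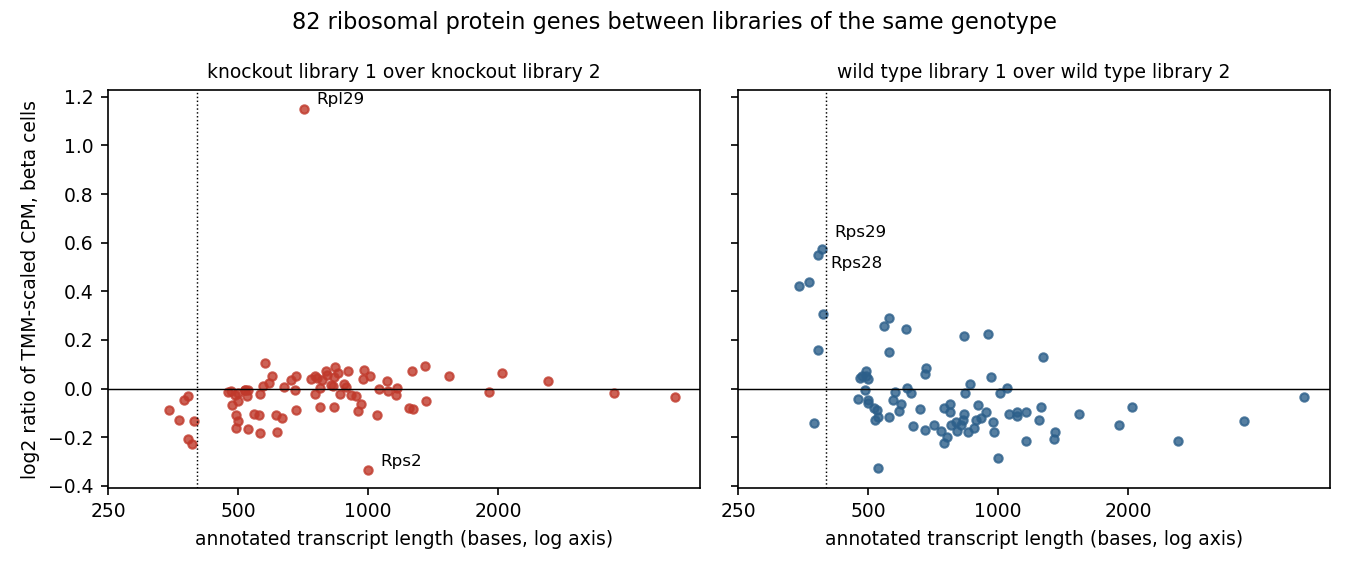
Log2 ratio between libraries of the same genotype in beta cells against annotated transcript length (log axis), for 82 ribosomal protein genes, with knockout left and wild type right. Rpl29 stands at 1.15 between knockout libraries, and the genes left of the dotted line at 400 bases are mostly higher in wild type library 1.

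Libraries of the same genotype differed little for most members. The median size of the log2 ratio was 0.05 between knockout and 0.12 between wild type libraries in beta cells. Rpl29 was at 1.15 between the knockout libraries, with Rps2 next at 0.33 in size. In beta cells 29 of 11498 genes with a mean of at least 100 UMIs lay as far apart as Rpl29, which is 1 of them, and in alpha cells 4 of 8539. The Rpl29 ratio was 1.31 in alpha, 1.13 in delta and 1.05 in other cells.

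The wild type libraries differed in the shortest mRNAs. The 7 members with an annotated transcript under 400 bases (Rps21, Rps27, Rps27rt, Rpl38, Rps29, Rps28 and Rpl36) had a median log2 ratio, wild type library 1 over 2, of 0.42 in beta, 0.55 in alpha, 0.45 in delta and 0.43 in other cells. The 75 longer members were at -0.09, 0.02, -0.03 and 0.01. Rps29 had 2770 and 2924 CPM in knockout and 4182 and 2601 in wild type alpha cells, and the knockout libraries lay inside the wild type range. In beta cells it had 1574 and 1847 CPM in knockout, against 1349 and 907 in wild type libraries (log2 0.60, SE 0.188, adjusted p = 0.0410), and the wild type libraries stood further apart than the knockout libraries. Over the 82 members, Spearman's rho between length and this ratio was -0.46 in beta cells and -0.34 to -0.44 in the other classes, as a description across genes that share libraries.

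Other genes of the translation apparatus did not all move with the family in beta cells, where 20.3% of all genes were called higher and 21.2% lower. Of the ribosomal proteins outside the symbol pattern, 3 of 4 tested rose and 0 fell, with Fau at 0.26, Rack1 at 0.22 and Rpsa, which did not pass the test, at 0.06. Among the other known TOP mRNAs, 8 of 23 rose and 3 fell, with a median of 0.09; the initiation factor gene Eif4b changed by 0.64, the elongation factor gene Eef2 by 0.43 and the chaperonin gene Cct4 by -0.35. Of 78 mitochondrial ribosomal protein genes, 1 rose and 39 fell, with a median of -0.22 and with Mrpl41 at -0.68, Mrpl21 at -0.57 and Mrps11 at -0.48. Among ribosome biogenesis genes, 1 of 43 rose and 26 fell, with a median of -0.39. Wdr12, which acts in large-subunit rRNA processing, changed by -0.84, Eif6, which keeps new large subunits from joining, by -0.84, and Ltv1, a small-subunit assembly factor, by -0.71. With library size only the medians of the mitochondrial and biogenesis lists were 0.70 and 0.52, below the 0.91 of the median gene.

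Of 17 tested genes of the mTORC1 arm, 4 rose and 4 fell in beta cells, a share near that of all genes in each direction. Deptor, an inhibitor of mTOR, changed by 0.62, Eif4ebp1, the translation repressor that mTORC1 phosphorylates, by -0.62, and Rps6kb1, the S6 kinase gene, by 0.42. Eif4ebp1 was also called lower in alpha and delta cells, at -1.57 and -1.44. Of these 17 genes, 1 was higher and 3 lower in alpha cells, where 6.95% and 9.99% of all genes were called. Delta cells had 1 higher and 1 lower, where 3.24% and 5.12% of all genes were called. In alpha cells the mitochondrial ribosomal protein genes also fell, 48 of 78 with 0 rising and a median of -0.29, where 6.95% of all genes were called higher and 9.99% lower. For the biogenesis genes the counts were near that background, with 5 of 43 lower, 1 higher and a median of -0.06. In delta cells 14 of 77 mitochondrial ribosomal protein genes fell and 0 rose, where 3.24% of all genes were called higher and 5.12% lower, and 2 of 43 biogenesis genes fell, near that background. In other cells 0 genes of the 5 lists passed the test.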

How the data were processed

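UMI counts per gene and cell were deposited by the authors for 2 knockout and 2 wild type libraries. Cell Ranger 3.0.0, Seurat 2.3.4 and the mm10 build are named in the submitters' processing notes; how reads that fit several genes were handled is not given in the sources used here. The deposited tables held 4337 and 2483 knockout cells and 5951 and 5841 wild type cells, each with at least 501 genes and under 10% mitochondrial UMIs, with 160208775 and 99156230 UMIs in the knockout and 215467602 and 228515309 in the wild type libraries.

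Doublets were scored per library against simulated ones, and 150 and 49 were removed in knockout and 283 and 273 in wild type libraries. In each library 2 cells above both hormone limits were left out. Counts were summed per library and class, since cells are not replicates, and tested with edgeR 4.0.16 in R 4.3.3 (quasi-likelihood, TMM, filterByExpr, Benjamini-Hochberg adjustment over all genes tested), after a test on simulated data. Each class was scaled alone, and levels are not divided by length, since 3′ counting reads each mRNA at its end. Interactions and wild type class differences used 8 sums with library as a block. Shares had an exact permutation test (SciPy 1.17.1). Alternatives were DESeq2 1.42.0, limma 3.58.1 (voom), other scalings, filters and classes, and each library left out.

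The members and lists were chosen with earlier results of these data known. Named members were Rps12 and Rpl29, the 8 largest changes each way in beta cells and the 4 largest in other classes, the 5 smallest p each way for differences between classes, paralogs, stalk genes and members too low to test. From each companion list up to 3 called genes were named. Some genes that these rules name are not reported here. Rpl14, Rpl22, Rpl36a, Rps27, the short-mRNA members and the alpha and delta values of Rplp0 were added after their values were seen. Replicate numbers did not pair the libraries. Gene positions and 3′ windows came from GENCODE vM21, and start sites from RefSeq.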

Additional observations from a re-analysis of the deposited data

Results flagged for a closer look

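The knockout effect differed between cell classes in the interaction tests (edgeR's quasi-likelihood test, adjusted p under 0.05). It was higher in beta than in alpha cells for 66 members and lower for 1, where 13.0% and 14.6% of all genes differed. Against alpha cells the differences, on the log2 scale, were 0.88 for Rps27rt, 0.77 for Rplp0, 0.77 for Rpl10, 0.65 for Rpl36al and -0.35 for Rpl22l1. It was higher in beta than in delta cells for 68 members and lower for 1, where 9.53% and 8.58% of all genes differed. Against delta cells the differences were 0.91 for Rplp0, 0.85 for Rps29, 0.70 for Rps21, 0.69 for Rps27 and -0.35 for Rpl22l1. The counts depended on the scale. With each sum scaled by its member total they were 12 higher and 20 lower against alpha and 14 and 25 against delta cells. Insulin was 42.8% of UMIs in knockout and 68.0% in wild type beta cells; its part in these differences was not tested.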

How the results depend on the processing

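Keeping the doublets, stricter classes, RLE scaling and hormone genes left out before scaling turned no named member and ended no call of one but that of Rplp0 in delta cells, lost with doublets kept (adjusted p = 0.0507). Counts of calls moved within 1.5 times: with doublets kept, 9 members were lower in alpha and 6 higher in delta cells; RLE scaling gave 6 higher and hormone genes left out 15 lower in delta cells. With library size only, the members called higher and lower were 80 and 0 in beta, 17 and 1 in alpha, 13 and 1 in delta and 9 and 0 in other cells, where 85.2%, 27.5%, 9.49% and 9.44% of all genes were called higher. With sums scaled by cell number they were 80 and 0, 81 and 1, 78 and 1, and 81 and 0, where 85.1%, 88.1%, 76.2% and 79.4% of all genes were called higher. Scaled by member total, beta cells had 16 and 14, alpha cells 11 and 1, and delta cells 2 lower. On that scale 10.2% and 44.1% of all genes were called in beta, 17.2% and 1.11% in alpha, and 1.35% lower in delta cells. DESeq2 called 25 lower in alpha, 5 higher in delta and 2 higher in other cells. Among all genes these calls were 729 of 12745, 70 of 11647 and 183 of 13269. The limma-voom test called 21 lower in alpha and 21 in delta cells, against 1269 of 12745 and 585 of 11647 genes. With no low-count filter 34 were lower in alpha and 33 in delta cells, against 1591 of 17533 and 1022 of 16941 genes. Without that filter other cells had 1 lower and 4 higher, against 357 and 461 of 18105 genes. The cause was not tested.

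The replicate block gave 6 higher and 6 lower in delta cells, against 603 and 731 of 11647 genes, and 1 lower in other cells, against 113 of 13269. Relative to the family in beta cells it gave 10 higher and 7 lower, against 1564 and 6539 of 14854 genes. Deviations of same-numbered libraries correlated at -0.18 to 0.07 over the 10411 to 13542 genes compared in a class. Over the 82 members they correlated at -0.34 to -0.28. In other cells, crossed numbers, chosen after seeing the data, gave 9 higher and 2 lower, against 938 and 924 of 13269 genes.

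With a library left out, calls higher and lower numbered 17 to 46 and 3 to 8 in beta, 3 to 6 and 4 to 31 in alpha, 2 to 4 and 2 to 8 in delta, and 0 and 0 to 1 in other cells. Relative to the family they were 1 to 18 and 3 to 18. Interaction counts were 38 to 67 and 0 to 1 against alpha and 61 to 66 and 1 against delta cells.

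Scaled by member total, the interaction counts were 12 higher and 20 lower against alpha and 14 and 25 against delta cells. Those called lower were 0 in both with library size only or cell number, where 1.09% to 8.15% of all genes were called lower. Also scaled by member total, wild type beta cells were higher and lower than alpha cells in 30 and 27 members, where 77.2% and 8.12% of all genes were called. Than delta cells they were higher and lower in 30 and 28, where 40.7% and 17.1% were called. By cell number, an alternative added after seeing the data, 1 member was higher than in alpha cells, where 57.2% of all genes were. Against delta cells 77 were higher and 0 lower, where 63.3% and 10.5% were. Library size gave 0 and 82 there, where 3.92% and 82.4% of all genes were called, and a mean of at least 20 counts 5 higher.

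The share difference turned to 0.337 percentage points in alpha and 0.0323 in delta cells over all UMIs. With library size and cell number, beta changes turned to 0.15 and 0.16 for Rpl22l1, 0.37 and 0.38 for Rps2, 0.52 and 0.52 for Rpl7l1, 0.59 and 0.59 for Rps19bp1, 0.76 and 0.76 for Rpl10a, 0.77 and 0.77 for Rpl8, 0.80 and 0.80 for Rpl19, and 0.89 and 0.90 for Rps27l. By cell number Rps2, Rpl22l1 and Rpl10a turned to 0.37, 0.37 and 0.41 in alpha and 0.17, 0.29 and 0.29 in delta cells, where Rplp0 turned to 0.39. In other cells Rps2, Rpl10a and Rps19bp1 turned to 0.53, 0.55 and 0.57. The Rpl22l1 interactions turned to 0.33 and 0.39 with library size. Against wild type delta cells, Rpl41, Rps27l, Rpl29, Rps6 and Rps2 turned to -1.01, -0.98, -1.08, -1.17 and -1.21 with library size, and Rps4x, Rps9 and Rps29 to 0.034, 0.045 and 0.085 by cell number. With 2 libraries a genotype, the precision is set by the libraries more than by depth.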
